A study of Mus musculus with 3 samples.

Results

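Alternative splicing of membrane trafficking genes was examined in RNA-Seq of the mouse hippocampus. Genes were taken by their symbols alone, as those that start with Rab, Arf, Arl, Snx or Sec and a digit, or with Rabep, Vps or Trappc. Of 8727 splicing events in 4860 genes, 113 events in 84 genes met this rule. They comprised 89 skipped exons, 10 alternative 3' and 7 alternative 5' splice sites, 4 pairs of mutually exclusive exons and 3 retained introns.

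Each of the 3 groups held 1 wild-type C57BL/6J mouse, which the labels give as 10 weeks old. All 3 mice carried an adeno-associated virus of serotype 9 (AAV9). It delivered 10 CUG repeats in CUG10 + vehicle and 300 CUG repeats, the kind of expansion that causes myotonic dystrophy type 1, in CUG300 + vehicle and CUG300 + CWG-cPIP. CWG-cPIP is a cyclic pyrrole-imidazole polyamide, a small molecule that binds CAG and CTG repeat DNA, and the other two mice received its vehicle. As a model the repeat is limited in 2 ways, since it stands in the transcript of a viral reporter and not in its own gene, and since 1 injected mouse stands for each group. The RNA was that of the tissue as a whole, so that fewer cells of a type and less RNA per cell cannot be told apart in any value below.

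Rab proteins are small GTPases that give each membrane compartment its identity and, when bound to GTP, recruit effectors that move, tether and fuse vesicles. Arf and Arl GTPases recruit coats and other effectors in the same cycle, COPII carries cargo out of the endoplasmic reticulum, TRAPP complexes activate Rabs, and HOPS and CORVET tether late and early endosomes. Retromer and sorting nexins return cargo from endosomes, and ESCRT proteins bud vesicles into them. In neurons these systems supply synaptic vesicles, axons and dendrites. By role the 84 genes were 21 Rab GTPases, 6 Rab effectors and regulators, 10 Arl GTPases and their partners, 14 Vps proteins, 13 sorting nexins, 4 COPII components, 2 Sec22 proteins, 3 components of the protein translocation channel and 8 TRAPP subunits. Another 3 met the rule by symbol without such a role, namely Sec11a, a subunit of signal peptidase, Sec14l1, a lipid-binding protein, and Rab10os, a noncoding RNA antisense to Rab10. No Arf GTPase had an event.

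Splicing was measured as percent spliced in (PSI, from 0 to 1), the share of reads for the inclusion form after division by the length of each form. Brackets hold 95% Clopper-Pearson intervals for a PSI and 95% Newcombe intervals for a difference. The intervals take each read as independent and cover counting error only, not the spread between mice, and no group has a replicate check. Reads carried no molecular identifiers, so repeated reads of 1 molecule could not be told apart by them. Differences are given as the library named first minus the other. The 7659 events counted in each of the 3 libraries summed to 560672 to 609546 counts. The trafficking events had a median of 46 counts in CUG10 + vehicle, 27 in CUG300 + vehicle and 57 in CUG300 + CWG-cPIP, against 22, 13 and 24 over all events.

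The markers of the labelled tissue were present in each library, with 18102, 8013 and 16386 counts per 1000000 event counts (CPM) summed over 8 neuron markers. These values, like all sets of 3 given in the same order below, are those of CUG10 + vehicle, then CUG300 + vehicle, then CUG300 + CWG-cPIP. In the markers of neurons, of microglia and immune cells, and of choroid plexus, CUG300 + vehicle stood apart from both other libraries. All 8 neuron markers were lower there than in CUG10 + vehicle, and all 7 measured markers of microglia and immune cells were higher, at 20359 CPM against 3227 and 5474. Ttr and Enpp2, the measured choroid plexus markers, summed to 71285 CPM there against 781 and 717. The 3 measured astrocyte markers summed to 663, 1464 and 1266 CPM, so both CUG300 libraries lay above CUG10 + vehicle. Against CUG10 + vehicle, 2 of these 3 were lower in CUG300 + vehicle and 0 in CUG300 + CWG-cPIP. The 4 measured oligodendrocyte markers summed to 8770, 7317 and 9763 CPM. What part these cells take in the values below was not tested. The comparison without the CUG300 + vehicle library is that of CUG300 + CWG-cPIP with CUG10 + vehicle.

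The sequences of 4 events are shown, and their values are given further below. All coordinates are 1-based on build mm10 and the bases were read from GENCODE M21 transcripts of that build. The first is a pair of coding exons of Rab6a, the Rab of traffic between Golgi and endoplasmic reticulum, on the plus strand at chr7:100629666-100629771 and chr7:100629838-100629943. Both exons are 106 nt long and 76 of the 106 bases (71.7%) are the same, and capitals mark the 30 that differ.
Rab6a first exon: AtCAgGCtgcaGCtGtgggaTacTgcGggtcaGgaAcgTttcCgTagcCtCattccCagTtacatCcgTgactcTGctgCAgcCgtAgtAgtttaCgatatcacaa
Rab6a second exon: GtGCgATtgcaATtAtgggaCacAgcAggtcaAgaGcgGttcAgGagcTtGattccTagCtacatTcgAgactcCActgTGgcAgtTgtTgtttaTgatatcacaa

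The second is a pair of coding exons of Trappc6b, a TRAPP subunit, on the minus strand at chr12:59048123-59048206 (84 nt) and chr12:59044253-59044346 (94 nt). This was the trafficking event with a difference above 0.15 and an interval clear of 0 between CUG300 + vehicle and CUG10 + vehicle.
Trappc6b first exon: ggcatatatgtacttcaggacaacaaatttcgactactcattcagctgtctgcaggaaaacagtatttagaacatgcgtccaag
Trappc6b second exon: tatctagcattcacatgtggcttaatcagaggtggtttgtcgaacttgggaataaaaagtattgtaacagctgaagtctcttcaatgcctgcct

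The third is an alternative 3' splice site of Rab5c, an early endosome Rab, on the minus strand at chr11:100716852-100716905. Capitals mark the 54 nt of coding sequence that the inclusion form adds, and the 20 bases after them belong to both forms. The last is a 105-nt coding exon of Rabep1, on the plus strand at chr11:70919177-70919281. Rabep1 encodes rabaptin-5, an effector of Rab5.
Rab5c extension: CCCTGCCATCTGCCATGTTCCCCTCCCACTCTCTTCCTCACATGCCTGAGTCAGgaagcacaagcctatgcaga
Rabep1 exon: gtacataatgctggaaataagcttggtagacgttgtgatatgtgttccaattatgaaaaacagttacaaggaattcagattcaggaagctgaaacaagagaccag

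Most of the deeper trafficking events showed mainly 1 form in all 3 mice. There were 53 events in 42 genes that reached 20 counts in every library. Of these, 36 had a PSI above 0.9 in each library, 4 had a PSI below 0.1 in each, and 13 lay from 0.1 to 0.9 in at least 1. The same shares were not counted over all events, so they are not shown to be particular to trafficking genes. Among 79 skipped exons with counts for 3 libraries, 45 (57.0%) rested on at most 1 skipping read in all, against 48.7% over all 5761 such exons. Skipping was seen in only 1 library for 51 of them (64.6%, against 56.4% over all), 22 in CUG10 + vehicle, 9 in CUG300 + vehicle and 20 in CUG300 + CWG-cPIP. Over all exons the split was 934, 1104 and 1209. A pair of libraries is listed only where both forms were seen in it, so for such an exon the direction follows from the library that holds the read. The 89 skipped exons had a median length of 116 nt, 43 of them (48.3%) had a length that is a multiple of 3 (48.1% over all events), and 79 were coding. The annotation holds a transcript with the skipping form for 40 of the 89. Coding exons and annotated skipping forms were not counted over all events.

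Between libraries, the two-sided Fisher's exact test on the counts of each event, with Benjamini-Hochberg adjustment over all listed events of its type, called no trafficking event at an adjusted p below 0.05 and an absolute PSI difference above 0.15. For CUG300 + vehicle against CUG10 + vehicle this was 0 of 81 listed events, beside 0.16% of all 6263 listed events. For CUG300 + CWG-cPIP against CUG300 + vehicle it was 0 of 78, beside 0.389% of 6679, and for CUG300 + CWG-cPIP against CUG10 + vehicle 0 of 95, beside 0.115% of 6983. With the unadjusted p below 0.05 and the same size, 2 of 81 (2.47%), 0 of 78 and 0 of 95 passed, beside 1.8%, 2.7% and 1.53% of all events. Such a test compares the reads of 2 libraries and not the conditions.

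Differences were small at events of some depth. Over events that reached 20 counts in both libraries of a pair, the median absolute PSI difference was 0.037 over 44 trafficking events for CUG300 + vehicle against CUG10 + vehicle (0.041 over all events). It was 0.030 over 40 for CUG300 + CWG-cPIP against CUG300 + vehicle (0.043) and 0.033 over 58 for CUG300 + CWG-cPIP against CUG10 + vehicle (0.047). In the same order 25, 28 and 40 of these events (56.8%, 70.0% and 69.0%) lay within 0.05 of 0, against 56.3%, 55.0% and 52.6% over all events. Inclusion was higher in the first library for 24 of 44 (54.5%), 21 of 40 (52.5%) and 32 of 58 (55.2%), against 42.1%, 58.8% and 50.5% over all events.

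Wide differences were those of shallow events. At any depth, 22, 18 and 29 trafficking events differed by more than 0.15 in the 3 pairs, in the order above, and 20, 16 and 25 of them had under 20 counts in the shallower library. Over all events 2619 of 6263, 2852 of 6679 and 2711 of 6983 differed by as much, and 2383, 2568 and 2446 of these had under 20 counts. An interval that left out 0, with a difference above 0.15 and 20 or more counts in both libraries, was found for 1 of 44 events (2.27%, Trappc6b), 0 of 40 and 1 of 58 (1.72%, Rabep1), beside 2.93%, 4.22% and 2.42% of all events.

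**Figure D1:**
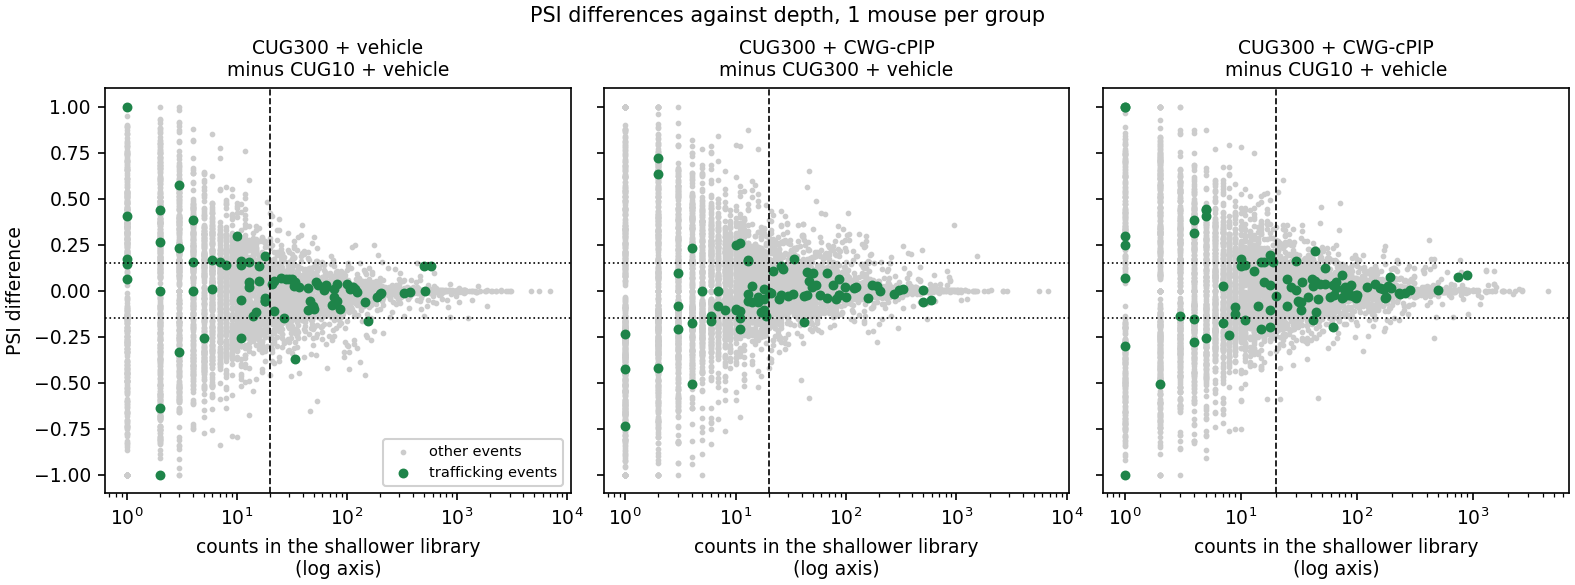
PSI difference (first library minus second) of each listed event against the counts in its shallower library on a log axis, for the 3 pairs of libraries, with trafficking events in green and all other events in grey. The dashed line is at 20 counts and the dotted lines are at 0.15 on either side of 0, and most trafficking events beyond the dotted lines stand left of the dashed line (20 of 22, 16 of 18 and 25 of 29).

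Among the Rab GTPases, 14 events in 12 genes reached 20 counts in every library, and the largest of their differences was 0.15. Rab6a (ENSMUSG00000030704.14) used the first exon of its pair in 10 of 289 counts in CUG10 + vehicle, 7 of 100 in CUG300 + vehicle and 12 of 330 in CUG300 + CWG-cPIP, at a PSI of 0.035 (0.017 to 0.063), 0.070 (0.029 to 0.139) and 0.036 (0.019 to 0.063). The second exon was therefore the main form in all 3 mice, and the intervals overlap. The difference between CUG300 + vehicle and CUG10 + vehicle was 0.035 (-0.010 to 0.105), and CUG300 + CWG-cPIP minus CUG10 + vehicle gave 0.002 (-0.030 to 0.032). No annotated transcript of Rab6a holds both exons.

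The Rab5 genes, which act at early endosomes, were measured in all 3 paralogs. Rab5c (ENSMUSG00000019173.11) used its 54-nt extension in 4 of 76 counts in CUG10 + vehicle, 6 of 84 in CUG300 + vehicle and 0 of 82 in CUG300 + CWG-cPIP. The PSI was 0.031 (0.008 to 0.079), 0.043 (0.016 to 0.092) and 0.000 (0.000 to 0.026), so the extension was a minor form or unseen in each mouse. Between CUG300 + CWG-cPIP and CUG300 + vehicle the difference of -0.043 (-0.091 to -0.007) had an unadjusted exact p of 0.0285 and an adjusted p of 0.746 by Fisher's exact test. Exons of Rab5a (255 nt), Rab5b (123 nt) and Rab5c (254 nt) had 2, 0 and 0 skipping reads in CUG10 + vehicle, 1, 0 and 0 in CUG300 + vehicle, and 1, 3 and 1 in CUG300 + CWG-cPIP. The Rab5b exon had its lowest PSI, 0.886 (0.717 to 0.975), in CUG300 + CWG-cPIP, and its intervals overlap across the 3 libraries. The Rab5a and Rab5b values, like those of Rab3a, Rab7, Rab28 and Rab11a below, fall outside the naming rule and were chosen after their values were seen.

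Rab3a, the Rab of synaptic vesicles, had a pair of 5' splice sites in its 5' UTR that are 5 nt apart, at chr8:70754864-70754868. The longer form took 59 of 214 counts in CUG10 + vehicle, 15 of 86 in CUG300 + vehicle and 43 of 178 in CUG300 + CWG-cPIP, with PSI of 0.263 (0.206 to 0.326), 0.165 (0.095 to 0.259) and 0.230 (0.171 to 0.297). CUG300 + vehicle had the lowest value, and all 3 intervals overlap. Its difference from CUG10 + vehicle was -0.098 (-0.186 to 0.007), with an unadjusted exact p of 0.0759 by Fisher's exact test. Rab7, the Rab of late endosomes and lysosomes, included an 87-nt exon of its 5' UTR at 0.034 (0.007 to 0.1), 0.103 (0.033 to 0.24) and 0.061 (0.027 to 0.115) in the same order.

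Other Rab exons of this depth were skipped in few reads. The 89-nt exon of Rab28, a Rab of cilia, was skipped in 0 of 38 counts in CUG10 + vehicle, 2 of 27 in CUG300 + vehicle and 1 of 65 in CUG300 + CWG-cPIP. Its difference of -0.15 (-0.402 to 0.061) between CUG300 + vehicle and CUG10 + vehicle was the widest of the Rab GTPases at this depth. The 178-nt exon of Rab14, which acts between Golgi and endosomes, was skipped in 1 of 199, 0 of 109 and 0 of 251 counts, and a 196-nt exon of Rab11a, the Rab of recycling endosomes, in 0 of 185, 0 of 158 and 2 of 176.

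No event of a Rab effector or regulator had 20 counts in each library. Rabep1 (ENSMUSG00000020817.16) had its 105-nt exon skipped in 5 of 49 counts in CUG10 + vehicle, 1 of 13 in CUG300 + vehicle and 0 of 44 in CUG300 + CWG-cPIP. The PSI was 0.784 (0.591 to 0.922), 0.832 (0.423 to 0.995) and 1.000 (0.825 to 1.000), lowest without the expanded repeat and highest with CWG-cPIP. Between the last and the first the difference was 0.216 (0.007 to 0.402), and the unadjusted exact p was 0.0576 by Fisher's exact test, above the threshold. A 129-nt exon upstream in the same gene, outside the naming rule, was skipped once in CUG10 + vehicle, never in CUG300 + vehicle and once in CUG300 + CWG-cPIP, on 18, 8 and 24 counts.

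Rab11fip5, an effector of Rab11 in recycling, had the longest exon of all trafficking events at 2019 nt. Its PSI was 0.187 (0.105 to 0.334) in CUG10 + vehicle on 65 inclusion and 10 skipping counts, 0.375 (0.086 to 0.962) in CUG300 + vehicle on 17 and 1, and 0.273 (0.154 to 0.473) in CUG300 + CWG-cPIP on 85 and 8. Nearly all of the reads were inclusion reads, and the low PSI follows from the division by length. The intervals overlap, and the one of CUG300 + vehicle spans most of the scale because it rests on 1 skipping read.

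**Figure D2:**
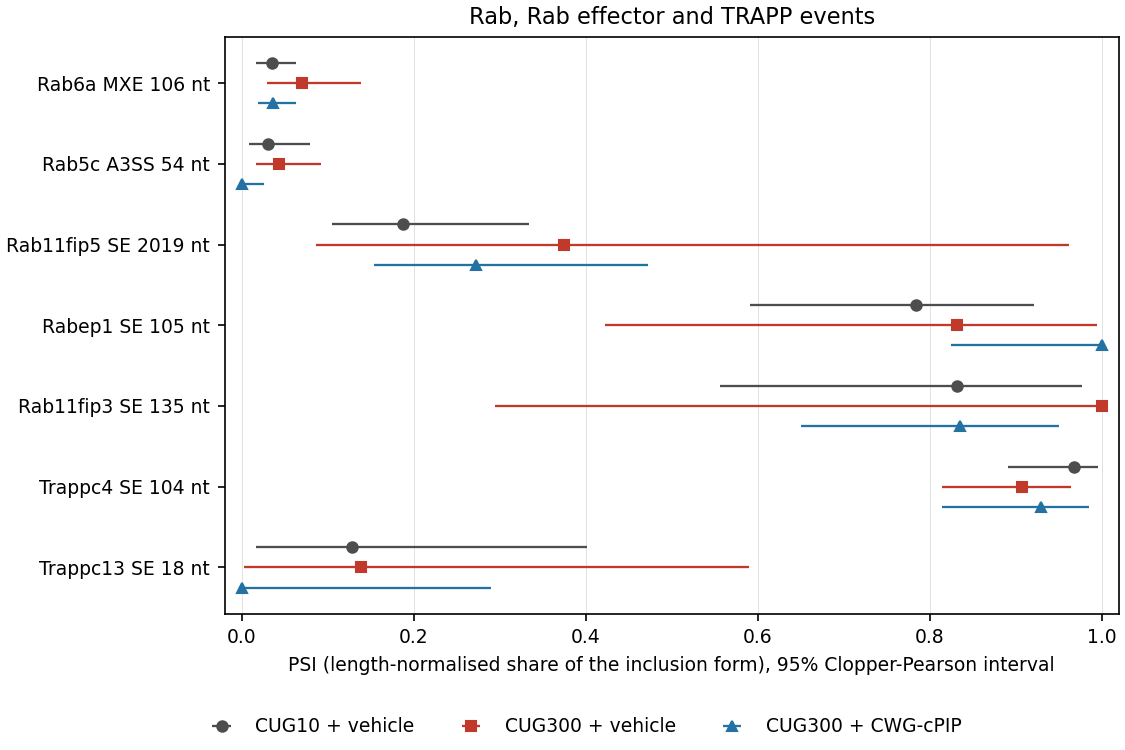
PSI with 95% Clopper-Pearson intervals of 7 events of Rab GTPases, Rab effectors and TRAPP subunits in the 3 libraries, 1 mouse each, with the event type (MXE mutually exclusive exons, A3SS alternative 3' splice site, SE skipped exon) and the length of the alternative region. Rab6a stays at 0.035 to 0.070, the Rab5c extension at 0.000 to 0.043, and the widest interval is that of Rab11fip5 in CUG300 + vehicle.

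Trappc6b (ENSMUSG00000020993.9) stood out among TRAPP subunits. The first exon of its pair took 84 of 193 counts in CUG10 + vehicle, 42 of 154 in CUG300 + vehicle and 113 of 221 in CUG300 + CWG-cPIP. The PSI was 0.450 (0.379 to 0.524), 0.285 (0.214 to 0.364) and 0.527 (0.459 to 0.594), so CUG300 + vehicle lay below both other libraries with no overlap of intervals. The difference between CUG300 + vehicle and CUG10 + vehicle was -0.165 (-0.262 to -0.062), with an unadjusted p of 0.00235 and an adjusted p of 0.0793 by Fisher's exact test. CUG300 + CWG-cPIP differed from CUG10 + vehicle by 0.076 (-0.020 to 0.171).

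The pair of CUG300 + CWG-cPIP and CUG300 + vehicle has no listed row for this event, although its counts stand in the other two pairs. Taken from those counts, the difference was 0.242 (0.140 to 0.334). In a set of all 7659 events with counts for 3 libraries, chosen after the data were seen, this difference passed Fisher's exact test with an adjusted p of 0.000177. It was then the 1 trafficking event called in that pair. The pair lists 279 of the 335 mutually exclusive exon events in which it had both forms.

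In the annotation, 4 Trappc6b transcripts hold both exons. Another 1 has the form with the first exon and without the second, and 0 have the form with the second alone. As a skipped exon, the 84-nt exon had a PSI of 0.988 (0.933 to 1.000), 1.000 (0.930 to 1.000) and 1.000 (0.962 to 1.000), with 1 skipping read in all 3 libraries. The PSI of the pair thus compares reads of 2 exons that 4 annotated transcripts hold together and 1 does not. Both exons shared an annotated transcript in 333 of the 413 mutually exclusive exon events in annotated genes (80.6%), among them those of Arl2bp and Vps26a.

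Other TRAPP exons that reached 20 counts in every library were included in most reads. A 104-nt exon of Trappc4 was skipped in 2 of 146 counts in CUG10 + vehicle, 6 of 148 in CUG300 + vehicle and 3 of 99 in CUG300 + CWG-cPIP, with PSI of 0.968 (0.891 to 0.996), 0.908 (0.815 to 0.965) and 0.930 (0.815 to 0.985). The 100-nt exon of Trappc3 was skipped once in all, in CUG300 + CWG-cPIP, on 106, 86 and 99 counts. Trappc13 has a microexon of 18 nt on the minus strand at chr13:104152165-104152182, chosen after its values were seen and shown because it is the shortest skipped exon of the trafficking events.
Trappc13 exon: agtgacctcagttctgtg

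That microexon was included in 2 of 13 counts in CUG10 + vehicle, 1 of 6 in CUG300 + vehicle and 0 of 9 in CUG300 + CWG-cPIP. Skipping was the main form in each mouse, and the 95% upper bound of PSI with CWG-cPIP was 0.290.

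Arl GTPases and their partners had 8 events that reached 20 counts in every library, and none of their differences was wider than 0.104. The 107-nt exon of Arl2bp, a binding partner of the microtubule regulator Arl2, was skipped in 0 of 109, 2 of 44 and 0 of 141 counts in the same order. Its PSI in CUG300 + vehicle was 0.896 (0.691 to 0.987), and 1.000 in the other two. CWG-cPIP minus vehicle gave 0.104 (0.007 to 0.304) with an unadjusted exact p of 0.0556 by Fisher's exact test. As the first of a pair of exons, which share 3 annotated transcripts and lie outside the naming rule, the same exon had a PSI of 0.623 (0.524 to 0.716), 0.541 (0.392 to 0.686) and 0.561 (0.471 to 0.648).

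The deepest exons of this class were included in nearly every read. Arl6ip1, which shapes tubules of the endoplasmic reticulum, had 1 skipping read among 517 counts in CUG10 + vehicle, 1 among 508 in CUG300 + vehicle and 0 among 501 in CUG300 + CWG-cPIP. Arl6ip5, a membrane protein that regulates glutamate transport, had 0 among 376, 1 among 328 and 0 among 327. Arl2 itself had 1 among 261, 2 among 200 and 0 among 172.

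Vps proteins belong to several complexes. In retromer, the 97-nt exon of Vps35, its core subunit, had 0 skipping reads among 84 and 58 counts and 1 among 99 in CUG300 + CWG-cPIP. Vps26a, which binds Vps35, used the first of a pair of 150-nt and 76-nt exons at 0.525 (0.381 to 0.670), 0.517 (0.314 to 0.725) and 0.649 (0.511 to 0.775). The difference between CUG300 + CWG-cPIP and CUG300 + vehicle was 0.132 (-0.092 to 0.349). In the annotation, 2 Vps26a transcripts hold both exons, 1 has the form with the first alone and 1 that with the second alone. Each exon was also measured as a skipped exon with a PSI of 0.865 or more in all 3 libraries.

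In ESCRT-I, an alternative 3' splice site of Vps28, with 98 nt of additional 5' UTR, was used in 28 of 84 counts in CUG10 + vehicle, 15 of 73 in CUG300 + vehicle and 24 of 67 in CUG300 + CWG-cPIP. The PSI was 0.177 (0.116 to 0.256), 0.1 (0.055 to 0.166) and 0.194 (0.122 to 0.288). The value of CUG300 + vehicle was the lowest, and the intervals overlap. CWG-cPIP minus vehicle gave 0.094 (0.002 to 0.191) with an unadjusted exact p of 0.0589 by Fisher's exact test. Vps25 of ESCRT-II skipped an 89-nt exon in 1 of 62, 1 of 67 and 0 of 53 counts. Vps4a, the ATPase that disassembles ESCRT-III, skipped its 148-nt exon only in CUG300 + CWG-cPIP, in 1 of 101 counts.

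The tethering complexes HOPS and CORVET and the SM protein Vps45, which controls SNARE pairing, were near full inclusion at the events that reached 20 counts in every library. Below that depth Vps8 of CORVET skipped a 54-nt exon in 0 of 27, 0 of 11 and 2 of 15 counts, and a 33-nt exon of Vps39 of HOPS was included in 0 of 4 counts in CUG10 + vehicle and 4 of 10 in CUG300 + CWG-cPIP, with no counts listed for CUG300 + vehicle. These exons were chosen after their values were seen. Vps41 of HOPS had 4 different skipped exons, each with 1 skipping read in all, and the reads came from CUG10 + vehicle for 2 of them and from each other library for 1. The values of 3 of them lie outside the naming rule. Its deepest exon, of 128 nt, had PSI of 0.978 (0.887 to 0.999), 1.000 (0.861 to 1.000) and 1.000 (0.933 to 1.000). Vps16 and Vps45 each had 1 skipping read, in CUG10 + vehicle, among 121 and 44 counts.

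Among sorting nexins, Snx27, which links retromer to cargo with PDZ ligands, had the widest difference of any trafficking event at this depth. Its 3' splice site event of 794 nt had 62 inclusion counts and 1 skipping count in CUG10 + vehicle, 31 and 3 in CUG300 + vehicle, and 105 and 5 in CUG300 + CWG-cPIP, for PSI of 0.841 (0.478 to 0.995), 0.468 (0.216 to 0.818) and 0.642 (0.426 to 0.849). CUG300 + vehicle was lowest, but the values rest on 1, 3 and 5 skipping reads and the intervals overlap. The difference between CUG300 + vehicle and CUG10 + vehicle was -0.373 (-0.649 to 0.074), with an unadjusted exact p of 0.122 by Fisher's exact test. As a share of counts with no length division it was -0.072.

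Snx16, a sorting nexin of early and late endosomes named after its values were seen, had a 120-nt coding exon at 0.943 (0.736 to 0.998), 0.956 (0.789 to 0.999) and 0.784 (0.566 to 0.933). It was lowest in CUG300 + CWG-cPIP, where 4 of 42 counts were skipping reads, against 1 of 44 and 1 of 58. The difference between CUG300 + CWG-cPIP and CUG300 + vehicle was -0.172 (-0.385 to 0.033). Snx3, which works with retromer, skipped its 96-nt exon in 0 of 275, 1 of 204 and 1 of 233 counts, and the 1427-nt intron of Snx12 had 1 read for the spliced form in each library, on 307, 189 and 260 counts.

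The COPII, Sec22 and translocation channel events were read at low depth apart from Sec62, a partner of the channel, whose 61-nt exon had 0, 1 and 0 skipping reads on 375, 519 and 302 counts. A 336-nt exon of Sec31a, of the outer COPII coat, had 1 skipping read in CUG10 + vehicle and 0 in the other two, on 30, 11 and 49 counts. Sec22a skipped a 66-nt exon in 1 of 4 counts in CUG10 + vehicle and in 0 of 6 and 0 of 10. Sec23b of the inner COPII coat, outside the naming rule, was the other event past the unadjusted threshold, with 5 of 5 counts for the longer form in CUG10 + vehicle and 0 of 2 in CUG300 + vehicle, an exact p of 0.0476 and an adjusted p of 1.0 by Fisher's exact test. CUG300 + CWG-cPIP had 3 of 4.

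Sec14l1, outside the role classes, had the deepest trafficking event in each library, and its 1851-nt retained intron and 1495-nt 3' splice site event, both at the 3' end of the gene, overlap and share reads. Retention was 0.680 (0.565 to 0.789), 0.816 (0.654 to 0.932) and 0.766 (0.645 to 0.868) on 900, 583 and 946 counts. The difference between CUG300 + vehicle and CUG10 + vehicle was 0.136 (-0.052 to 0.286), with an unadjusted exact p of 0.179 by Fisher's exact test. These values were chosen after they were seen.

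**Figure D3:**
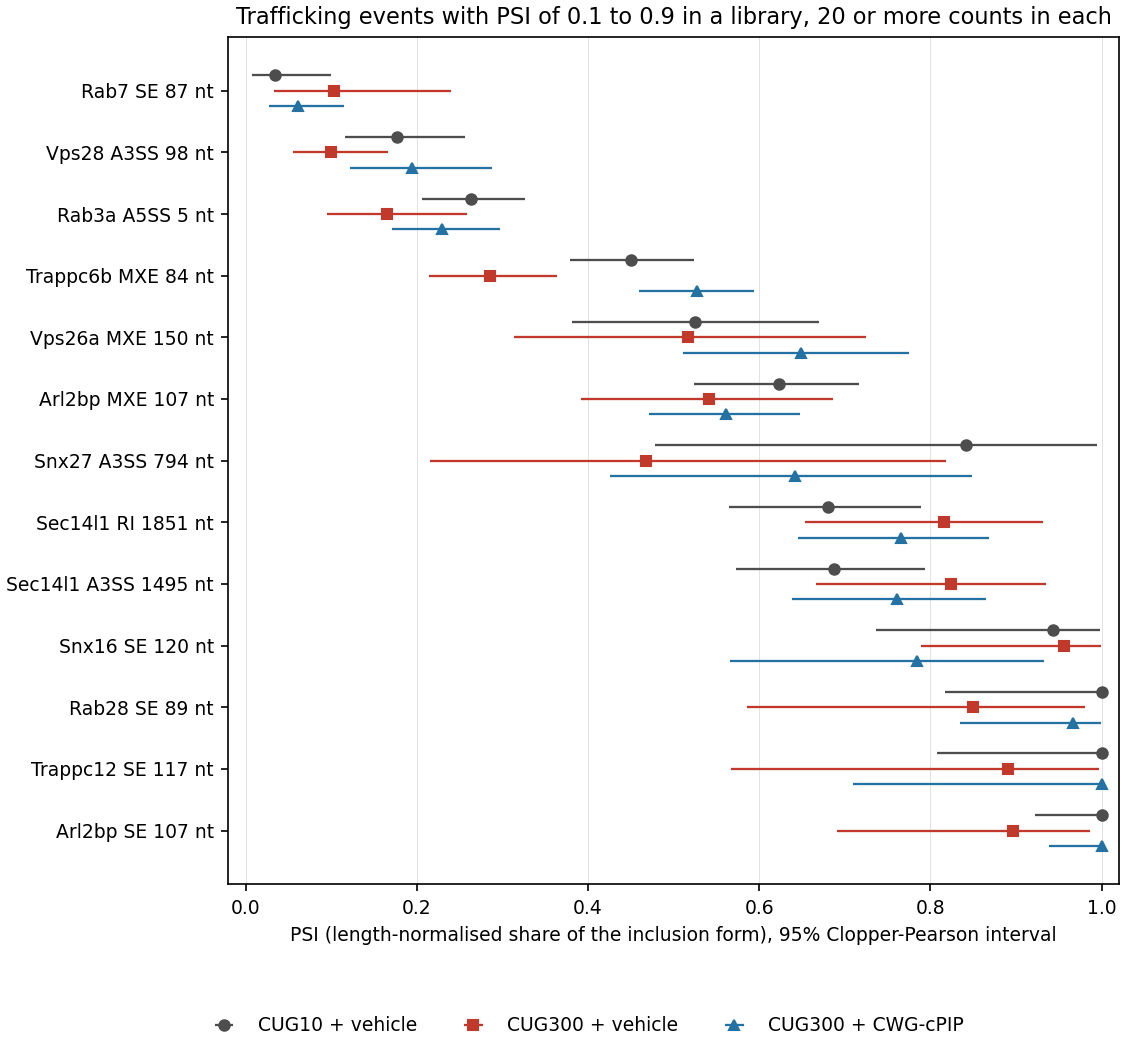
PSI with 95% Clopper-Pearson intervals of the 13 trafficking events that reached 20 counts in every library with a PSI of 0.1 to 0.9 in at least 1 library, ordered by mean PSI, with event types as above and A5SS and RI for alternative 5' splice sites and retained introns. Trappc6b is the one event in which CUG300 + vehicle, at 0.285, has an interval clear of both other libraries, at 0.450 and 0.527.

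Counts at these events also differed between libraries. Summed over the 99 trafficking events with counts for 3 libraries, they were 15425 CPM in CUG10 + vehicle, 11885 in CUG300 + vehicle and 17533 in CUG300 + CWG-cPIP. Reads shared by overlapping events count more than once in these sums, among them those of Sec14l1, the deepest gene and outside the role classes. With 1 event a gene the sums were 12262, 9840 and 13675 CPM. To follow single genes, the event with the most counts was taken for each of 44 trafficking genes with at least 100 counts over the 3 libraries. The CPM sum reads of both forms without length correction. A ratio between libraries therefore also moves where PSI differs between them, most where the forms differ much in length. Rab11fip5, read at an exon of 2019 nt, had a PSI of 0.187 in CUG10 + vehicle and 0.375 in CUG300 + vehicle. With 1 mouse per group a ratio has no test.

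Between CUG300 + vehicle and CUG10 + vehicle the median ratio was 0.772 over the 44 genes and 0.779 over all 1776 genes of this depth. Counts were at least 2-fold lower for 10 of 44 (22.7%), beside 23.8% of all genes, and at least 2-fold higher for 0 of 44, beside 5.41%. The share of lower genes was close to that over all genes. The 10 genes were Rab3a, Rab5b, Rab6a, Rab15, Rabep1, Rab11fip5, Arl2bp, Arl8a, Snx25 and Vps4a. The 8 neuron markers together had a ratio of 0.443 in the same libraries, and their part in these values was not tested.

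Of the 14 Rab GTPases among these genes, 12 had lower CPM in CUG300 + vehicle than in CUG10 + vehicle, and Rab5c and Rab21 had higher CPM. Over all genes of this depth, 1215 of 1776 had lower CPM in CUG300 + vehicle. Rab6a was at 474 CPM in CUG10 + vehicle, 176 in CUG300 + vehicle and 589 in CUG300 + CWG-cPIP. The genes given here by their CPM were chosen after their values were seen. Rab3a was at 351, 151 and 317 CPM, Rab15 at 102, 28.2 and 105, and Arl8a, which moves lysosomes and synaptic vesicle precursors, at 166, 77.5 and 300. In contrast Rab5c was at 387, 479 and 483 CPM, Rab21, an endosomal Rab, at 176, 257 and 155, and Sec62 at 615, 914 and 539. The ratio of CUG300 + vehicle to CUG10 + vehicle was 0.372 (0.293 to 0.468) for Rab6a, 0.258 (0.145 to 0.435) for Rab11fip5, the lowest, and 1.49 (1.30 to 1.70) for Sec62, the highest.

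Between CUG300 + CWG-cPIP and CUG300 + vehicle the median ratio was 1.57 over the 44 genes and 1.28 over all genes. Counts were at least 2-fold higher for 18 of 44 (40.9%), beside 29.6% of all genes, and at least 2-fold lower for 0 of 44, beside 10.0%. This pair shares the CUG300 + vehicle library with the previous one. Without that library, CUG300 + CWG-cPIP against CUG10 + vehicle gave a median of 1.09, against 1.01 over all genes. In that pair no trafficking gene was 2-fold lower or higher, beside 0.845% and 4.34% of all genes, and the ratios ran from 0.716 to 1.90.

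**Figure D4:**
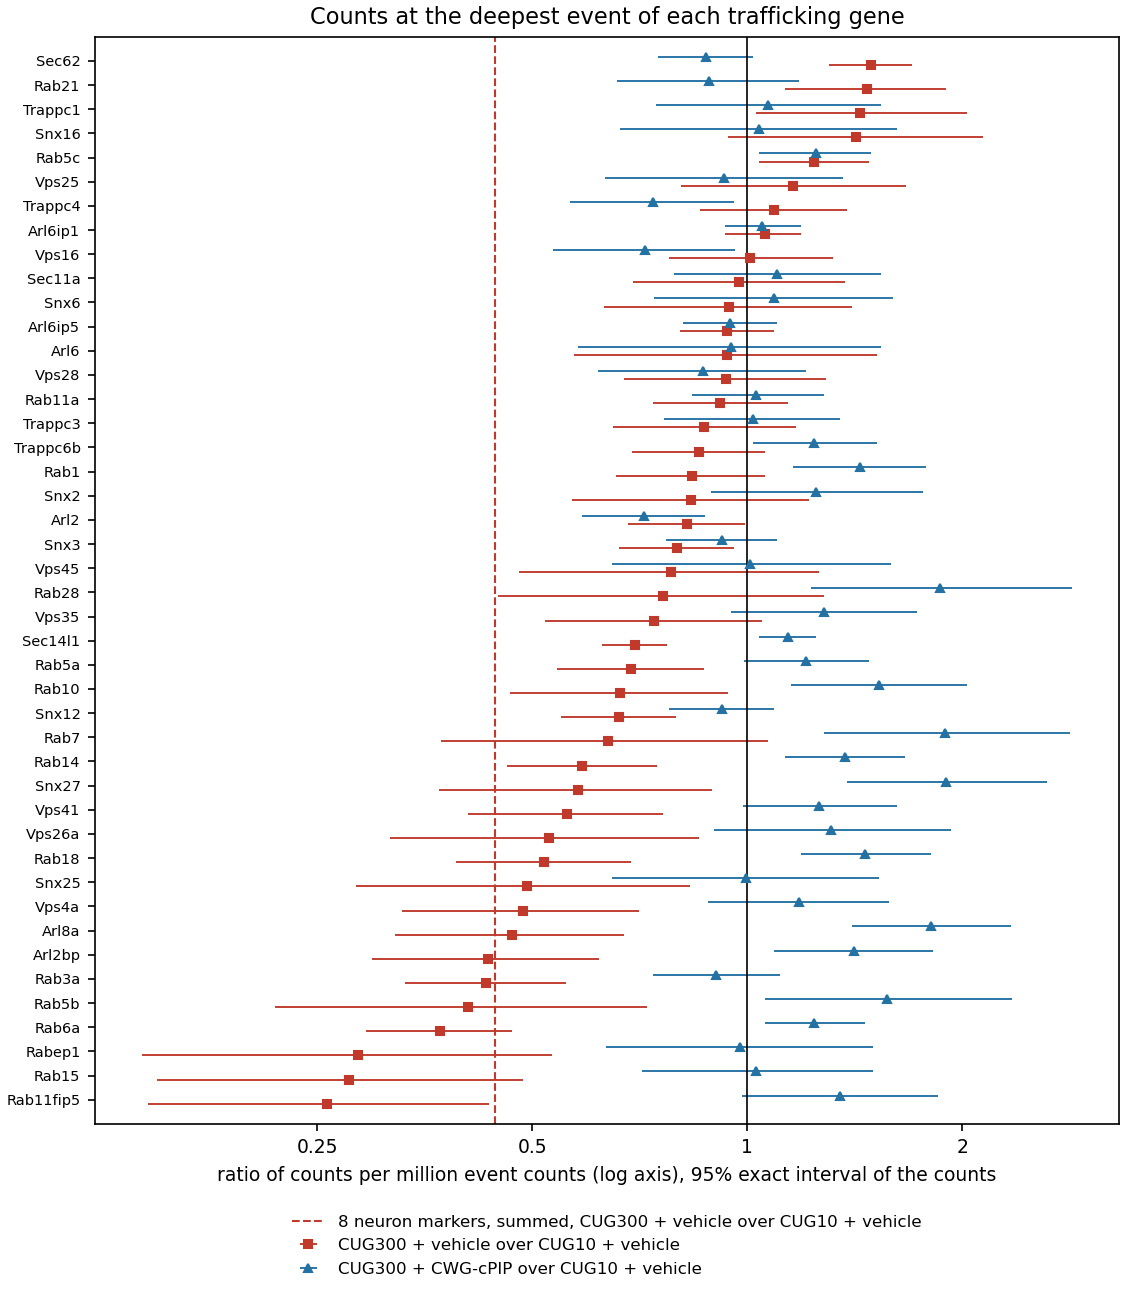
Ratio of CPM at the deepest event of each of 44 trafficking genes, on a log axis, in CUG300 + vehicle (red squares) and CUG300 + CWG-cPIP (blue triangles) over CUG10 + vehicle, with 95% exact intervals of the counts, 1 mouse each. The red ratios run from 0.258 for Rab11fip5 to 1.49 for Sec62 and lie below 1 for 35 of 44 genes (1215 of 1776 over all genes), and the dashed line marks the 0.443 of 8 neuron markers.

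Regulators, coats and tethers that the symbols leave out were taken from 9 lists with 198 genes. Among them were exchange factors and GTPase-activating proteins of Rabs and Arfs, SNAREs, adaptor complexes, COPI and the exocyst. In the 3 pairs, in the order above, 69, 76 and 75 of the 198 genes had a listed event. With the unadjusted p, 5 of 128, 6 of 134 and 4 of 139 events passed, beside 1.8%, 2.7% and 1.53% of all events. Each of these unadjusted shares was above that of all events, and this excess was not tested. The adjusted exact test called 0 of 128, 0 of 134 and 1 of 139 events, beside 0.16%, 0.389% and 0.115% of all events. The one called was a 3' splice site event of Iqsec1, an exchange factor of Arf6 at synapses, with a PSI of 0.533 in CUG300 + CWG-cPIP and 0.258 in CUG10 + vehicle, a difference of 0.275 (0.144 to 0.398) and an adjusted p of 0.00743 by Fisher's exact test. It was 0.281 in CUG300 + vehicle, and CWG-cPIP minus vehicle gave 0.252 (0.079 to 0.401) with an adjusted p of 0.53 by the same test.

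An interval that left out 0, with the size and depth above, was found for 2 of 64 (3.12%), 3 of 58 (5.17%) and 2 of 66 (3.03%) events of these lists, beside 2.93%, 4.22% and 2.42% of all events. Mutually exclusive exons of Ap4s1, a subunit of the AP-4 adaptor, were used at 0.725 in CUG10 + vehicle, 0.550 in CUG300 + vehicle and 0.750 in CUG300 + CWG-cPIP. The Iqsec1 event above met these conditions in both pairs of libraries with CUG300 + CWG-cPIP, and the rest were skipped exons. The exon of Stx4a, a SNARE of the plasma membrane, had a PSI of 0.755 in CUG300 + vehicle and 0.538 in CUG10 + vehicle. Its difference was 0.217 (0.021 to 0.405). The exon of Arfrp1, a Golgi GTPase, had a PSI of 0.899 in CUG300 + CWG-cPIP and 0.628 in CUG300 + vehicle. Its difference was 0.271 (0.037 to 0.437). The exon of Adap1, a GTPase-activating protein of Arf6, had a PSI of 0.819 in CUG300 + CWG-cPIP and 1.000 in CUG10 + vehicle. Its difference was -0.181 (-0.332 to -0.047). Neither these skipped exons nor the Ap4s1 exons passed the adjusted exact test. The median absolute PSI difference of the lists was 0.038, 0.036 and 0.039. It was 0.037, 0.030 and 0.033 for the trafficking events chosen by symbol and 0.041, 0.043 and 0.047 over all events.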

How the data were processed

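The authors sequenced directional libraries of total hippocampal RNA from 3 mice, 1 per group. The submitters' processing notes name Trim Galore 0.6.6, RSEM 1.3.3, STAR 2.7.9a, build mm10 and DESeq2 1.36.0, which served gene expression and is not analysed here. The authors ran rMATS on each pair of libraries and deposited 15 tables, 5 event types for each of 3 pairs. These hold whole-number counts of reads for inclusion and skipping, on junctions and within exons, per event and library. They also hold the inclusion level, which the authors deposited as a fraction from 0 to 1. Whether counting used strand is not given in the sources used here, so Rab10os and Rab10 cannot be told apart where they overlap. Columns of the authors' own comparisons (p-value, false discovery rate, PSI difference) were not used.

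PSI was recomputed from counts and effective lengths (largest deviation 0.0005). The deposited lengths, 74 nt for the skipping form of an exon, are those of shorter reads than the methods of the study give for these libraries. This was not resolved, and it bears on the length division behind each PSI. The library of each column was taken from the pair a table names, and the counts of a library in 2 tables were identical in 14737 of 14737 comparisons. For mutually exclusive exons, inclusion means the first exon in transcript order. The two-sided Fisher's exact test of scipy 1.17.1 was applied to all listed events, with Benjamini-Hochberg adjustment within event type and pair, and was tested on simulated data. CPM are counts per 1000000 event counts of a library, and intervals of their ratios are conditional exact intervals. Of 84 symbols, 83 were in GENCODE M21, and Rab1 matched Rab1a by coordinates. The members and lists were chosen with earlier results of these data known.

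Events were named where called, where the interval of the difference lay farthest from 0 (up to 10 genes per pair, at least 20 counts in each library), and by depth, up to 3 genes per role class or the deepest event of a class without 20 counts in each library. Members outside this rule, given with values, were chosen after their values were seen.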

Additional observations from a re-analysis of the deposited data

How the results depend on the processing

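No event was called in any pair when p-values were adjusted over all event types, when the size threshold was 0.10 or 0.20, when PSI was replaced by the share of inclusion counts without length division, or when genes outside the role classes were left out. With the unadjusted p, 2 events were called between CUG300 + vehicle and CUG10 + vehicle. Over all events with counts for 3 libraries, an alternative added after the data were seen, 1 event, Trappc6b, was called and set apart by its interval between CUG300 + CWG-cPIP and CUG300 + vehicle.

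The 1 event set apart between CUG300 + vehicle and CUG10 + vehicle, Trappc6b, became 0 at a size of 0.20 and 0 without mutually exclusive exons, the other added alternative. The 0 between CUG300 + CWG-cPIP and CUG300 + vehicle became 1 at a size of 0.10 (Arl2bp) and 1 with the share of inclusion counts (Vps28). The 1 between CUG300 + CWG-cPIP and CUG10 + vehicle, Rabep1, became 0 at a minimum of 50 counts and 0 with the share. With the share, the median absolute differences of the 3 pairs were 0.015, 0.012 and 0.016, and the smaller values follow from leaving out the length division. The named PSI differences kept their sign with the share in all 66 cases and moved by at most 0.301, for Snx27, from -0.373 to -0.072 between CUG300 + vehicle and CUG10 + vehicle. That of Rab11fip5 in the same pair moved from 0.189 to 0.078.

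Summed counts, in the order CUG10 + vehicle, CUG300 + vehicle, CUG300 + CWG-cPIP, were 12262, 9840 and 13675 CPM with 1 event a gene and 17134, 13729 and 18778 over events in all 3 pairs. Without the choroid plexus markers in the total, CUG300 + vehicle was at 12797. CUG300 + vehicle was lowest in each setting.

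No paired analysis was possible because each group has 1 mouse, and for the same reason no library was left out within a group. The median trafficking event had 20.5 to 34.0 counts in the shallower library of a pair, depending on the pair. A value that passed no threshold at this depth does not show that splicing was alike.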
